A study of Mus musculus with 6 samples.

Results

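Voltage-gated and related ion channel genes were followed in the hypothalamus of DBA/1 mice. Members were chosen by a rule on gene symbols, with earlier results of these data known. The rule took every probe whose platform symbol began with Kcn, Cacn, Hcn, Clcn, Scnn or Scn plus a digit. This gave 83 of 10080 probes, for 78 of the 8726 genes named by probes with a single symbol. There were 48 potassium channel probes, 16 calcium, 9 sodium, 8 chloride and 2 for the Hcn channels, which pass both sodium and potassium. The symbols also take in auxiliary subunits, chloride-proton exchangers, epithelial sodium channel subunits and 1 non-coding RNA, Kcnmb4os1, so the set is wider than voltage-gated channels.

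Male DBA/1 mice 8 weeks of age received either type II collagen (100 ul) mixed with complete Freund's adjuvant (100 ul), or the adjuvant alone (200 ul). Both groups were given lipopolysaccharide (LPS) on day 24, so both carried adjuvant and LPS, and the volume of adjuvant differed with collagen and cannot be told apart from it. No measure of arthritis was analysed here. RNA of a collagen sample and a control sample was hybridised to the same 2-colour array, in 3 biological replicates with 2 arrays each, 1 with collagen in Cy5 and 1 with collagen in Cy3. How long after LPS the mice were killed is not clear from the labels, which also do not say whether a replicate was 1 mouse or a pool. Both arrays of a replicate were therefore counted as 1 sample.

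Voltage-gated potassium channels repolarise neurons and set their firing rate, and voltage-gated sodium channels carry the upstroke of the action potential. Voltage-gated calcium channels turn depolarisation into calcium entry, which drives the release of transmitters and of hypothalamic peptides. T-type calcium and Hcn channels open at voltages near rest and contribute to burst and pacemaker firing, including that of hypothalamic neurons. The Clcn genes encode chloride channels of the plasma membrane and exchangers of endosomes and lysosomes.

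The reading of the arrays carries limits that hold for every value below. Channel A was taken as Cy3 from the order of the labels, which is not stated in the files, and if it were Cy5 every direction would turn. After turning to collagen over control, the 2 arrays of a replicate correlated across the 2316 tested probes at -0.20, -0.75 and -0.32 in replicates 1, 2 and 3. The replicate means correlated at 0.16 between replicates 1 and 2, -0.12 between 1 and 3, and -0.13 between 2 and 3. Probes are not independent replicates. Whether the dyes were swapped as labelled was not tested, and if they were not, the collagen and channel ratios described below would exchange roles. The array of replicate 1 with collagen in Cy3 had the widest log2 ratios, with a standard deviation of 1.41 over tested probes against 0.36 to 0.59 on the others, and of 1.19 against 0.29 to 0.57 over the tested channel probes. Of 12 probes for hypothalamic markers, 11 had a ratio on at least 2 arrays. Over all probes only 4.4% had a ratio on 0 arrays and 14.8% on 1, so this count does not test the tissue. Oxt, Pmch, Gal, Gnrh1 and Cartpt had ratios on all 6 arrays, Nkx2-1 on 5 and Otp on 4. Avp and Hcrt had them on 3, Trh and Sst on 2 and Sim1 on 1. Of the glial markers, Aldh1l1, Mag, Cldn11 and Cd68 had ratios on 6 arrays, Slc1a3 on 2 and Aif1 on 1. The neuronal markers had 6 probes, with Syp and Stmn2 on 6 arrays but Snap25 and Nefl on 2. The single endothelial probe, Cdh5, had a ratio on 1 array. A missing ratio is thus not evidence of a missing transcript.

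A probe counted as detected on an array when both channels had signal above background in the same scan. Of the 83 channel probes, 17 were detected on all 6 arrays (20.5%), against 23.0% of all probes on the slide. A further 21 (25.3%) were detected on 5 arrays, against 13.7% of all probes, and 37 (44.6%) on 0 to 2 arrays, against 43.4%. No test was made of these shares. Channel A had signal on all 6 arrays for 78 of the 83 probes (94.0%, against 89.8% of all probes). The count for channel B was 17 (20.5%, against 23.2%). Channel probe coverage was lowest on the array of replicate 2 with collagen in Cy5, at 40 of 83 (48.2%, against 48.9% of all probes). It was highest on the array of replicate 3 with collagen in Cy3, at 74 (89.2%, against 84.9%).

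**Figure D1:**
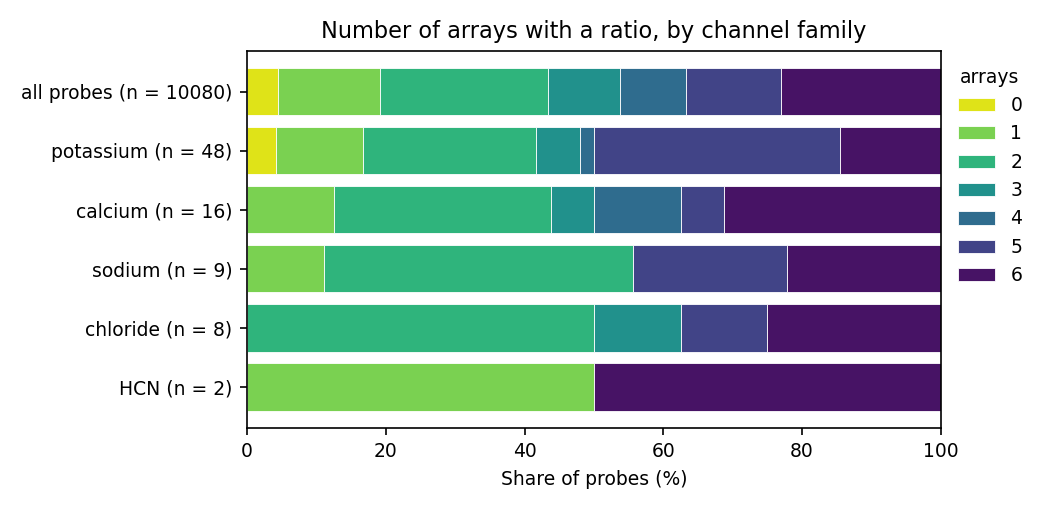
Share of probes (%, horizontal axis) by the number of arrays on which both channels gave a ratio (colours, 0 to 6), for all 10080 probes and for each channel family. The potassium bar has a wide block for 5 arrays, 35.4% of 48 probes, against 13.7% of all probes.

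By family, 17 of 48 potassium probes (35.4%) were found on 5 arrays and 7 (14.6%) on 6. Of the calcium probes 5 of 16 were on 6 arrays, of the sodium probes 2 of 9, of the chloride probes 2 of 8, and of the Hcn probes 1 of 2. For the 21 channel probes found on 5 arrays, the missing array was that of replicate 3 with collagen in Cy5 for 9 and that of replicate 1 with collagen in Cy3 for 8. The same 2 arrays were the ones most often missing over all 1384 probes found on 5 arrays, at 716 and 381. Of 25 channel probes with 2 ratios, 14 had them on both arrays of replicate 3 (56%), against 72.5% of all such probes.

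Detection in the collagen and in the control channel was also counted. Collagen was detected on more arrays than control for 13 channel probes, control on more than collagen for 35, and both equally for 35, with a difference of at most 2 arrays either way. Over all probes the counts were 1337, 3336 and 5407. Detection depended on channel and array, and no test of a gain or loss of transcripts was made from these counts.

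The comparison of collagen with control asked whether channel transcripts differed in hypothalami of collagen-injected mice. No channel probe passed the test. With limma and Benjamini-Hochberg adjustment over all 2316 probes, 0 of 17 tested channel probes had an adjusted p under 0.05, where the share over all tested probes was 0%. At an unadjusted p under 0.05 there were also 0 of the 17, against 25 of 2316 (1.08%) overall. The smallest unadjusted p of a channel probe was 0.0817, for Cacna1h, and adjusted p ran from 0.872 to 0.960. Log2 ratios of the 17 ran from -0.36 to 0.48, with 12 negative and 5 positive and a median of -0.12. Over all tested probes the median was -0.09 and 66.3% were negative. In bulk tissue, fewer cells of a type and less RNA per cell cannot be told apart.

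The median half-width of the 95% interval was 0.45 on the log2 scale for the channel probes and 0.45 for all tested probes. Taken over the 17, the intervals reached down to -0.89 (Cacng2) and up to 1.27 (Clcn4). In the first scan the foreground of the tested channel probes was 1.84 to 6.07 times the local background in channel A and 1.88 to 12.9 times in channel B (medians over arrays), with Clcn7 and Kcnh3 at the low ends. Abundance is given as the median over arrays of the background-subtracted intensity per pixel of spot area in the first scan, before normalization. Both kinds of median use only arrays with signal in both channels in that scan. Of the 17 probes, 12 had this on all 6 arrays. Cacng2, Clcn4, Hcn2, Kcnd3 and Kcnh3 did not, so their medians rest on fewer arrays. Abundance was higher in control than in collagen for 14 of the 17 probes (82.4%, against 63.1% of all tested probes), and was not tested. For 3 of these 14, namely Clcn4, Kcnd3 and Kcnc1, the normalised log2 ratio was positive. Levels of different probes depend on their oligonucleotides and were not set against each other.

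**Figure D2:**
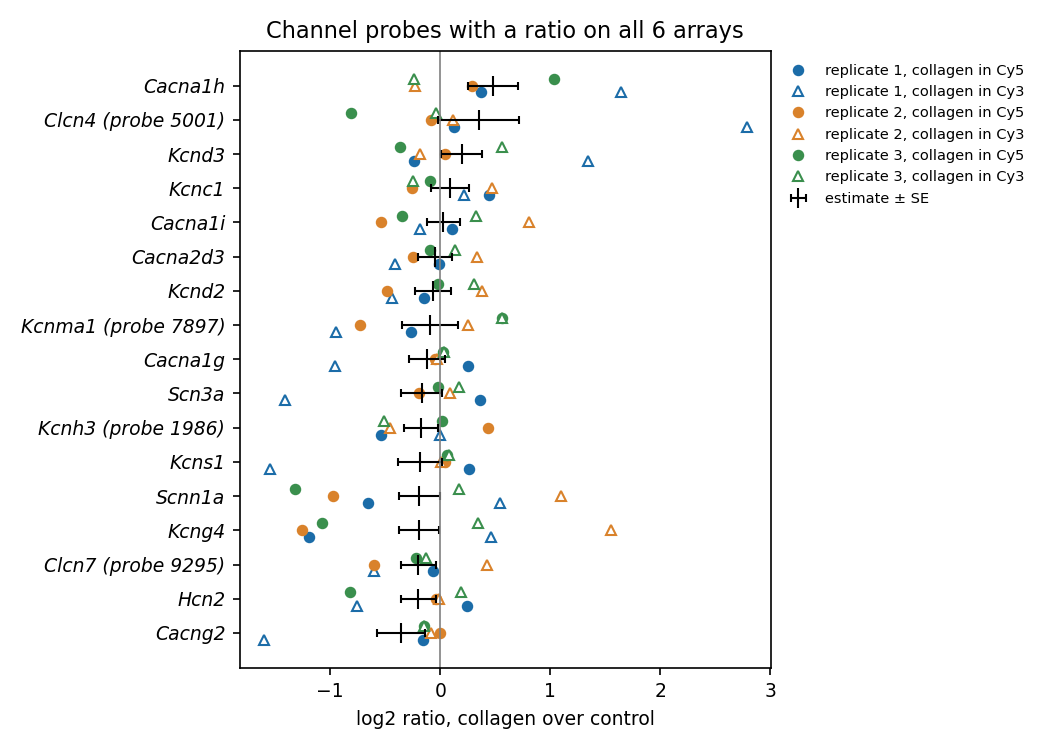
Log2 ratio of collagen over control (horizontal axis) for the 17 channel probes with a ratio on all 6 arrays. Filled circles are arrays with collagen in Cy5, open triangles those with collagen in Cy3, colours are replicates, and black bars are the mean of 3 replicates ± SE. All means lie between -0.36 and 0.48, while single arrays reach -1.60 for Cacng2 and 2.78 for Clcn4.

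Among calcium channel genes, all 3 T-type pore subunits were measured on every array. Cacna1h (Entrez Gene 58226) had log2 ratios of 0.37 and 1.64 in replicate 1, 0.29 and -0.23 in replicate 2, and 1.03 and -0.24 in replicate 3, with the array carrying collagen in Cy5 given first. It was positive on all arrays with collagen in Cy5 and on 1 of 3 with collagen in Cy3. Its mean was 0.48 ± 0.23 (SE, n = 3; limma adjusted p = 0.872), the highest of the 17. Its intensity was 603 in collagen and 490 in control, 1 of the 3 probes with more in collagen. On the Cy3-collagen array of replicate 1, the printing block that holds this probe had a median channel B over channel A ratio of -2.87, which reads as positive after turning. Without replicate 1 Cacna1h was at 0.21, and with loess fitted within printing blocks (print-tip loess) its sign turned to -0.02.

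The means of the other T-type subunits lay near 0. Cacna1g, which is strongly expressed in bursting neurons such as those of the thalamus, had a mean of -0.12 ± 0.17. Replicates 1, 2 and 3 gave -0.35, -0.04 and 0.03. Its arrays read 0.25 and -0.96 in replicate 1, -0.05 and -0.03 in replicate 2, and 0.03 and 0.04 in replicate 3, so the Cy3-collagen array of replicate 1 alone lay far from 0 on the low side. Its intensity was 2490 in collagen and 3102 in control. Without replicate 1 its mean was -0.0019. Cacna1i, another neuronal T-type subunit, was at 0.03 ± 0.15, with replicate values of -0.04, 0.14 and -0.01. Without replicate 2 it turned to -0.03. Its intensity was 3429 in collagen and 3319 in control. The difference between T-type genes was not tested.

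Of the auxiliary calcium channel genes, Cacng2 and Cacna2d3 were tested. Cacng2 (Entrez Gene 12300) encodes stargazin, named for its similarity to a calcium channel subunit and known mainly for bringing AMPA receptors to the synapse. It read -0.16 and -1.60 in replicate 1, -0.0049 and -0.08 in replicate 2, and -0.14 and -0.14 in replicate 3, collagen in Cy5 first. Its mean was -0.36 ± 0.22 (SE, n = 3; limma adjusted p = 0.872), and its intensity was 461 in collagen and 518 in control. It was the only channel probe of the 17 with the same sign on 6 arrays, as were 18 of all 2316 tested probes (0.777%). The size of the mean rested on 1 array of replicate 1, without which replicate it was -0.09. On that array the printing block of Cacng2 had a median channel B over channel A ratio of 0.68, which reads as negative after turning. Print-tip loess gave -0.28, negative on 5 arrays and at an unadjusted p of 0.0427 (adjusted p = 0.958). Cacna2d3, an extracellular subunit that promotes surface expression of calcium channels, was at -0.05 ± 0.16 and turned to 0.03 without replicate 1.

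The high-voltage-activated calcium channel genes were mostly under the detection rule. Cacna1d, an L-type pore subunit that opens at relatively negative voltages, had ratios on 5 arrays, and Cacna1e (R-type) and the beta subunit gene Cacnb1 on 4. Cacna1a, the P/Q-type subunit of presynaptic terminals, had ratios on 3. Cacna1c, Cacna2d2, Cacnb2, Cacng1 and Cacng4 had ratios on 2 arrays, and Cacna1f and Cacng3 on 1. The 5 tested calcium probes had a median log2 ratio of -0.05, or 0.03 without replicate 1, and 0 were called in either direction.

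Potassium channel genes gave 7 tested probes, of which 0 were called. Kcnd3 and Kcnd2 encode pore subunits of A-type channels, which delay firing. Kcnd3 read -0.23 and 1.34 in replicate 1, 0.04 and -0.18 in replicate 2, and -0.37 and 0.56 in replicate 3. Its 2 arrays had opposite signs in every replicate, and the mean was 0.19 ± 0.19 (SE, n = 3; limma adjusted p = 0.872), or 0.01 without replicate 1. On the Cy3-collagen array of replicate 1, where Kcnd3 read 1.34, its printing block had a median channel B over channel A ratio of 0.01. Kcnd2 was at -0.07 ± 0.17, with replicate values of -0.29, -0.05 and 0.14, and turned to 0.05 without replicate 1. Kcnc1, the fast delayed rectifier of fast-spiking neurons, read 0.44 and 0.21 in replicate 1, -0.26 and 0.47 in replicate 2, and -0.09 and -0.25 in replicate 3. Only replicate 1 had both arrays positive and only replicate 3 both negative. Its mean of 0.09 ± 0.17 turned to -0.03 without replicate 1 and to -0.20 with print-tip loess.

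Kcns1 and Kcng4 encode silent subunits, which form no channel alone but modify those of the Kcnb family. Kcns1 read 0.26 and -1.54 in replicate 1, 0.04 and 0.0073 in replicate 2, and 0.06 and 0.08 in replicate 3. It was negative only on the Cy3-collagen array of replicate 1. Its mean of -0.18 ± 0.20 thus turned to 0.05 without replicate 1. Kcng4 showed another pattern. It read -1.20 and 0.47 in replicate 1, -1.26 and 1.55 in replicate 2, and -1.07 and 0.34 in replicate 3, so every array with collagen in Cy5 was negative and every array with collagen in Cy3 positive. Its mean was -0.19 ± 0.18, or -0.11 without replicate 1 and also without replicate 3, and -0.36 without replicate 2. Its intensity was 1010 in collagen and 1176 in control.

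Kcnh3, a neuronal member of the ether-a-go-go family, was at -0.18 ± 0.16, with replicate values of -0.27, -0.01 and -0.25. The 2 arrays of every replicate disagreed in sign for this probe. Kcnma1, the pore subunit of the large-conductance channel opened by calcium and voltage, averaged -0.09 ± 0.25, from -0.61, -0.24 and 0.56 in replicates 1, 2 and 3. Its intensity was 2146 in collagen and 3066 in control. Without replicate 1 it was at 0.16, without replicate 2 at -0.02 and without replicate 3 at -0.42. The 7 potassium probes had a median of -0.09, with medians of -0.29, -0.01 and 0.07 in replicates 1, 2 and 3. Without replicate 1 the median was 0.01.

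Of the sodium genes, Scn3a and Scnn1a were tested and 0 were called. Scn3a encodes a voltage-gated pore subunit that is abundant in the developing brain. It read 0.36 and -1.41 in replicate 1, -0.20 and 0.09 in replicate 2, and -0.02 and 0.17 in replicate 3. The lowest value again came from the Cy3-collagen array of replicate 1. On that array the printing block of Scn3a had a median channel B over channel A ratio of 0.93, which reads as negative after turning. The mean of Scn3a, -0.17 ± 0.19, was 0.01 without replicate 1. Scnn1a (Entrez Gene 20276) encodes a subunit of the epithelial sodium channel, which is not gated by voltage. It read -0.66 and 0.54 in replicate 1, -0.97 and 1.09 in replicate 2, and -1.32 and 0.17 in replicate 3, again negative with collagen in Cy5 and positive with collagen in Cy3. Its mean was -0.19 ± 0.19 and 0.0017 without replicate 3. The neuronal genes Scn1a and Scn2a had ratios on 5 arrays, Scn7a and Scn9a on 2 and Scn10a, typical of sensory ganglia, on 1. In the mouse RefSeq gene table Scn3a and Scn2a are next to each other among protein-coding genes, as are Scn1a, Scn9a and Scn7a.

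Hcn2 (Entrez Gene 15166), a main Hcn subunit of the brain, read 0.24 and -0.76 in replicate 1, -0.04 and -0.0085 in replicate 2, and -0.82 and 0.19 in replicate 3. Its intensity was 721 in collagen and 1254 in control. All 3 replicate means were negative, at -0.26, -0.03 and -0.32, although the arrays of replicates 1 and 3 disagreed in sign. The mean was -0.20 ± 0.16 (SE, n = 3; limma adjusted p = 0.872). Without replicate 2 it was at -0.29. Over the 17 probes, 5 had replicate means of 1 sign in all 3 replicates (29.4% against 23.6% of all tested probes). Hcn3 had a ratio on 1 array.

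Clcn4 and Clcn7, exchangers of chloride and protons on endosomes and lysosomes, were the tested Clcn genes. Clcn4 read 0.13 and 2.78 in replicate 1, -0.08 and 0.12 in replicate 2, and -0.81 and -0.04 in replicate 3. The value of 2.78 was the highest single one of the 17 probes, and both arrays of replicate 3 were negative. Its mean of 0.35 ± 0.37 (SE, n = 3; limma adjusted p = 0.872) turned to -0.21 without replicate 1. It was at 0.74 without replicate 3 (unadjusted p = 0.0263, limma adjusted p = 0.482), where the share of all tested probes at an unadjusted p under 0.05 was 7.12%. Its printing block had a median channel B over channel A ratio of -1.23 on that replicate 1 array. The intensity of Clcn4 was 2689 in collagen and 3248 in control. Clcn7 read -0.06 and -0.60 in replicate 1, -0.60 and 0.43 in replicate 2, and -0.22 and -0.13 in replicate 3, negative on 5 of 6 arrays. Its mean was -0.20 ± 0.16, and -0.13 without replicate 1. Clcn6 had ratios on 5 arrays, a second Clcn7 probe on 3, and Clcn1, Clcn3 and Clcn5 on 2.

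**Figure D3:**
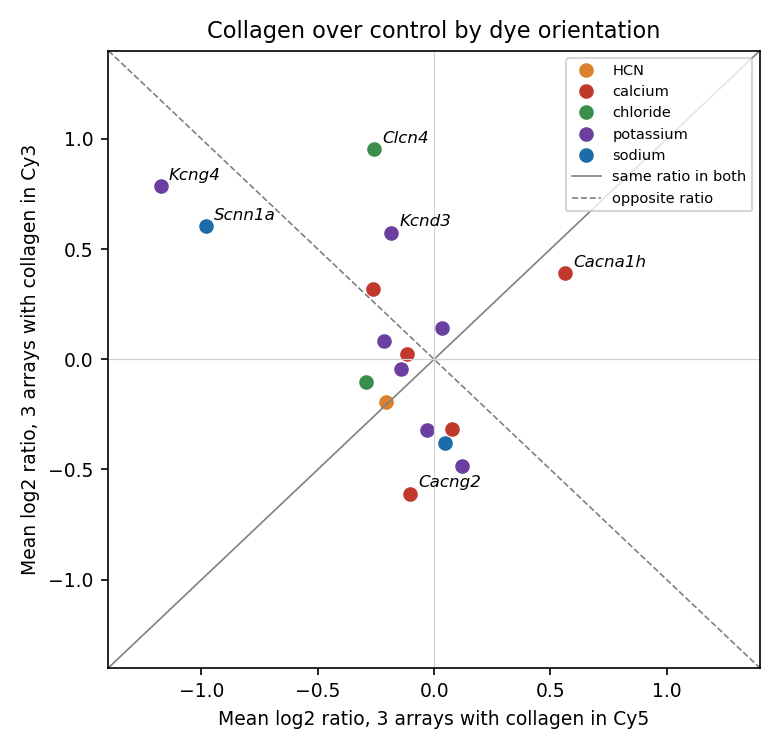
Mean log2 ratio of collagen over control on the 3 arrays with collagen in Cy5 (horizontal axis) against that on the 3 arrays with collagen in Cy3 (vertical axis) for the 17 tested channel probes, coloured by family. Points on the solid line have the same ratio in both orientations, and points on the dashed line opposite ratios, as Kcng4 at -1.18 and 0.79 and Scnn1a at -0.98 and 0.60.

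The dye swap separates a collagen ratio, which keeps its sign after turning, from a channel ratio, which changes it. The sign differed between the 2 arrays of a replicate for 9, 13 and 10 of the 17 channel probes in replicates 1, 2 and 3, against 59.3%, 79.0% and 58.5% of all tested probes. For 10 of the 17 the mean channel ratio was larger in size than the mean collagen ratio (58.8% against 60.6% overall). Kcng4 and Scnn1a were the only channel probes with the same channel ratio sign on all 6 arrays (11.8% of the 17), as were 360 of all tested probes (15.5%). Both lie in the same printing block, where channel B read lower than channel A by 0.98 and 0.79 on average for these probes. With print-tip loess that mean channel ratio was -0.72 for Kcng4 and -0.58 for Scnn1a. On the Cy3-collagen array of replicate 1 their collagen ratios then turned to -0.59 and -0.52. Neither probe thus kept 1 channel ratio sign on all 6 arrays. Kcnc1 was also tested from that block, and its mean channel ratio was -0.06. On the Cy3-collagen array of replicate 1 the block median of channel B over channel A was -1.50, and elsewhere between -0.18 and -0.0047.

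A fit on the arrays with collagen in Cy5 alone shows what the swap averages out. In it Kcng4 was at -1.18 (limma adjusted p = 0.0187) and Scnn1a at -0.98 (limma adjusted p = 0.0445), so 2 of 17 channel probes were called, against 1.47% of all tested probes. On the arrays with collagen in Cy3 alone they were at 0.79 and 0.60 (limma adjusted p = 0.780 for both), and 0 of 17 were called. Within 1 orientation a channel ratio and a collagen ratio cannot be told apart.

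The 21 channel probes with ratios on 5 arrays were fitted with a dye term and the replicate as a block. This setting was chosen after seeing the data. The correlation within a replicate was fixed at -0.19, as estimated over the tested probes with 6 ratios. Being negative, it makes the SE of a mean over paired arrays smaller than independent arrays would. Of all 3700 probes with at least 5 ratios, 0 passed the adjusted threshold and 36 had an unadjusted p under 0.05 (0.973%), 0 of them channel probes. The estimates of the 21 ran from -0.53 to 0.97, with 15 negative and 6 positive and a median of -0.11. Over all probes with 5 ratios the median was -0.0078.

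**Figure D4:**
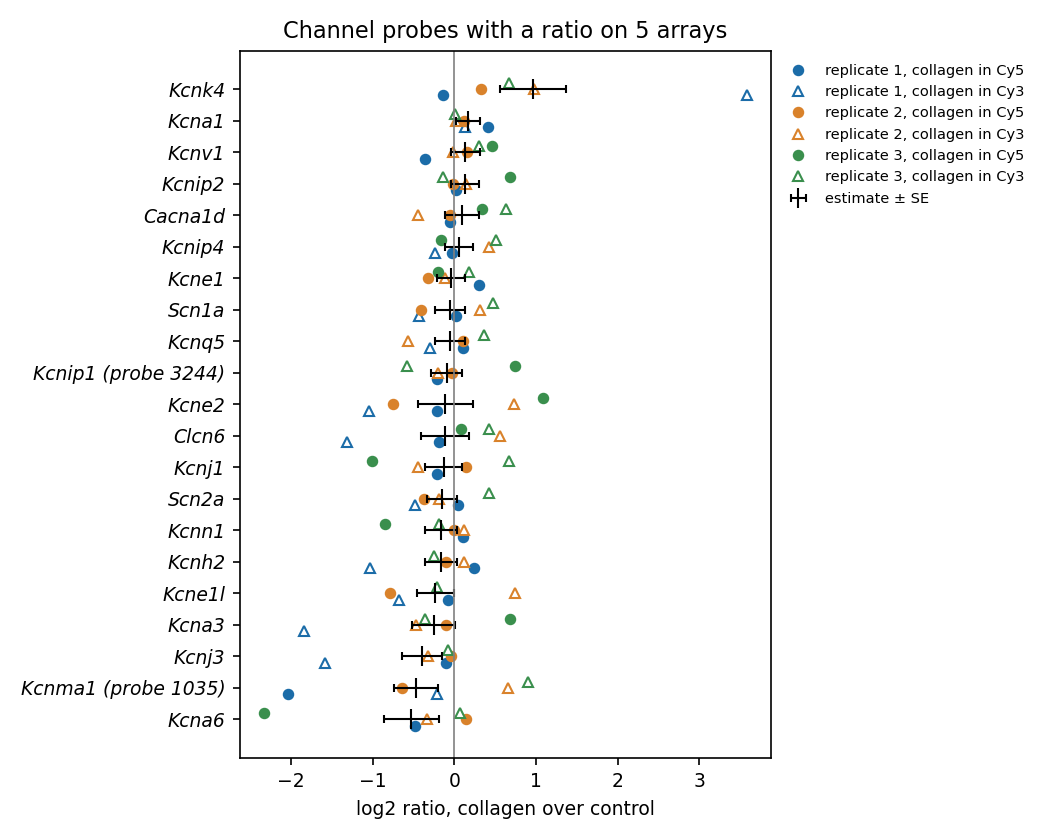
Log2 ratio of collagen over control (horizontal axis) for the 21 channel probes with a ratio on 5 arrays, with symbols by dye orientation and colours by replicate. Black bars are the estimate with a dye term ± SE, from -0.53 for Kcna6 to 0.97 for Kcnk4, whose array at 3.58 stands far from its other 4.

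Kcnk4, a mechanosensitive leak potassium channel of neurons, had the highest estimate at 0.97 ± 0.41 (limma adjusted p = 0.880). It read -0.14 and 3.58 in replicate 1, 0.33 and 0.98 in replicate 2, and 0.67 on the remaining array of replicate 3, where collagen was in Cy3. Of its 5 arrays 4 were positive. Its block had a low channel B over channel A median on the Cy3-collagen array of replicate 1, at -1.70. Scn1a lies in the same block and read -0.43 on that array. The part of the printing block in these values was not tested. Without replicate 1 the mean of Kcnk4 over both orientations was 0.57 against 0.92 with it. With print-tip loess its 5 arrays read 0.08, -0.27, 0.03, 1.01 and 0.50 in the same order, and the mean over both orientations was 0.24.

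Pore subunits of the Shaker group, which shape the action potential at axons, were Kcna1, Kcna3 and Kcna6. Kcna1 had the most even values, 0.41, 0.13, 0.12, 0.02 and 0.0045, all positive, and an estimate of 0.16 ± 0.15 (limma adjusted p = 0.880). Print-tip loess also left it positive on 5 arrays, with a mean over both orientations of 0.18. Kcna3 was at -0.26 ± 0.26, with -1.84 on the Cy3-collagen array of replicate 1 and 0.68 on the replicate 3 array with collagen in Cy5. Kcna6 was at -0.53 ± 0.34, with -2.33 on the replicate 3 array with collagen in Cy5 and between -0.48 and 0.14 elsewhere. The mean over both orientations of Kcna6 was -0.51, and -0.25 without replicate 3, and that of Kcna3 was -0.30, and -0.06 without replicate 1. Print-tip loess gave -0.33 for Kcna6 and -0.04 for Kcna3 on that measure.

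Of the inward rectifiers, Kcnj3, which G proteins open downstream of inhibitory receptors, was negative on all 5 arrays, from -1.59 to -0.05. Its estimate was -0.40 ± 0.24 (limma adjusted p = 0.880), and the mean over both orientations went from -0.37 to -0.12 without replicate 1. With print-tip loess it was -0.21, with 3 arrays negative and 2 positive. Kcnj1, best known from the kidney, was at -0.13 ± 0.23. Kcnq5, of the muscarine-sensitive M current, was at -0.06 ± 0.18, Kcnh2 at -0.17 ± 0.20, and Kcnn1, opened by calcium alone, at -0.16 ± 0.20. The silent subunit gene Kcnv1 was at 0.13 ± 0.18.

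Auxiliary potassium subunits came out between -0.23 and 0.12. The calcium-binding partners of A-type channels were Kcnip1 at -0.10 ± 0.19, Kcnip2 at 0.12 ± 0.17 and Kcnip4 at 0.06 ± 0.17. The single-span subunit genes were Kcne1 at -0.04 ± 0.17, Kcne2 at -0.11 ± 0.33 and Kcne1l at -0.23 ± 0.23. Outside the potassium group Scn1a was at -0.05 ± 0.19, Scn2a at -0.15 ± 0.18, Cacna1d at 0.09 ± 0.21 and Clcn6 at -0.11 ± 0.29. For all of these except Kcne1l the estimate was smaller than its SE.

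Genes with more than 1 probe allowed a check within the set, and 5 genes had 2 probes each. The Kcnma1 probes had the same sign on all 5 arrays they shared, and on 3 of 5 with print-tip loess. The probe with 5 ratios read -2.04 and -0.22 in replicate 1, -0.65 and 0.65 in replicate 2, and 0.90 with collagen in Cy3 in replicate 3. The tested one read -0.26 and -0.95, -0.73 and 0.25, and 0.56 there. Their estimates were -0.47 ± 0.27 and -0.09 ± 0.24 in the fit with a dye term, and arrays of replicates 1 and 3 lay on opposite sides of 0. The probes of the other 4 genes shared fewer arrays and often had opposite signs. The second Clcn4 probe read 0.41 and 0.0068 in replicate 3, where the tested one read -0.81 and -0.04. The second Kcnh3 probe read 0.75 and 0.53 on the Cy3-collagen arrays of replicates 1 and 3, where the tested one read 0.0020 and -0.51. For Kcnip1 the probes shared only the Cy3-collagen array of replicate 3, at 0.53 and -0.59. The second Clcn7 probe read 0.87 on the Cy3-collagen array of replicate 1 and -0.30 and -0.11 in replicate 3, where the tested probe read -0.60, -0.22 and -0.13.

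Of the 37 channel probes with 0 to 2 ratios, Kcnmb2 and Kcne4, auxiliary subunit genes, had none. Kcna2, Kcnd1, Kcnk1 and Kcnj8 had ratios on 2 arrays and Kcnk2, Kcnj2 and Kcnmb4 on 1. Kcnh7, with ratios on 4 arrays, and Kcna4, Kcnh1 and Kcnk10, on 3, were also not tested. The non-coding Kcnmb4os1 lies within the span of Kcnmb4 in the RefSeq gene table, and had ratios on 2 arrays.

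**Figure D5:**
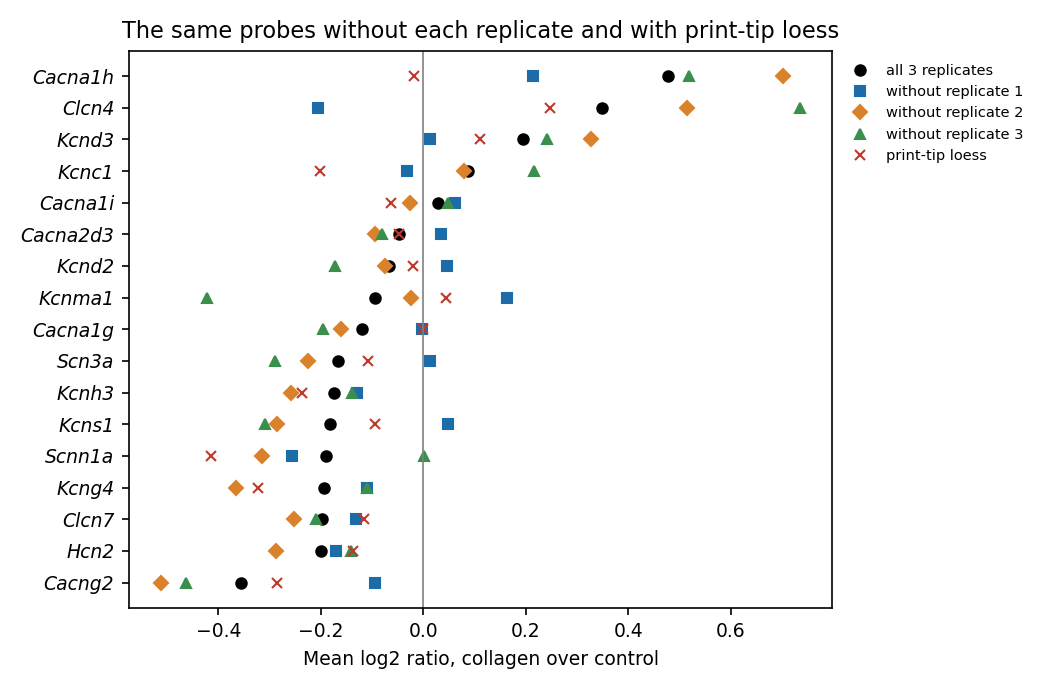
Mean log2 ratio of collagen over control (horizontal axis) for the 17 tested channel probes with all 3 replicates (black), without each replicate, and with print-tip loess (crosses). Without replicate 1, 7 of the 17 probes change sign, and Clcn4 goes from 0.35 to -0.21.

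Leaving out replicate 1 changed the sign of 7 of the 17 probes, namely Clcn4, Kcnc1, Cacna2d3, Kcnd2, Kcnma1, Scn3a and Kcns1. Leaving out replicate 2 changed that of Cacna1i and leaving out replicate 3 that of Scnn1a. The Cy3-collagen array of replicate 1 held the value farthest from the probe's median for 8 of the 17, and that of replicate 2 for 7. Within replicates, the medians of the 17 were -0.27, -0.01 and -0.01 in replicates 1, 2 and 3, against -0.21, -0.01 and -0.0094 for all tested probes. The medians were farthest from 0 in replicate 1, for the channel probes and for the slide.

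Other ways of processing gave few channel probes at an unadjusted p under 0.05. Print-tip loess gave 1 of 17 (Cacng2), against 1.3% of all tested probes. The first scan alone gave 1 of 12 (Cacna1h), against 1.76%. Requiring a ratio on only 1 array of every replicate gave 1 of 41 (Kcnk4), against 1.66%. The arrays with collagen in Cy5 alone gave 3 of 17 (Kcng4, Scnn1a and Cacna1h), against 15.8%, and those with collagen in Cy3 alone gave 0, against 2.5%. There were 0 of 17 with normexp background correction, against 2.03%, with median centring, against 2.29%, and with replicates centred, against 0.95%. There were also 0 of 17 with saturated scans kept or with both channels required above 1.5 times background, against 1.04% each, and with the replicate block, against 1.21%. Without the fourth column of printing blocks 0 of 9 remaining probes reached it, against 1.67%. Values of the authors' deposited table gave 0 of 14, against 0.975%. Without replicate 1 there were 0 of 17, against 2.29%, and without replicate 2 also 0, against 2.98%. Without replicate 3 there was 1, Clcn4, and 0 passed after adjustment, against 1.3% of all tested probes.

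Other genes of ion permeation and ion gradients came from a list of 125 genes outside the symbol rule, among them Trp channels, pumps and calcium stores. The slide held 52 probes for 49 of them and 13 were tested. None passed, with 0 called higher and 0 lower by limma and 0 at an unadjusted p under 0.05. There were 7 positive and 6 negative log2 ratios, with a median of 0.0085 against -0.09 over all tested probes. Piezo2, a mechanosensitive cation channel, was at -0.69 ± 0.31 (SE, n = 3; limma adjusted p = 0.872), with replicate values of -1.40, -0.82 and 0.14. Slc8a1, a sodium-calcium exchanger, was at 0.44 ± 0.20, with replicate values of 0.31, 0.87 and 0.15. In every replicate its array with collagen in Cy5 was negative (-0.26 to -0.13) and that with collagen in Cy3 positive (0.42 to 2.00). Atp1a4, a sodium pump subunit, was at 0.55 ± 0.30 and at 0.12 without replicate 1. Without replicate 1 Piezo2 was at -0.34 and Slc8a1 at 0.51. Print-tip loess gave -0.66 for Piezo2, 0.12 for Slc8a1 and 0.15 for Atp1a4 (limma adjusted p from 0.958 to 0.980).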

How the data were processed

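Per the file headers, the authors' deposited spot values are intensities after subtraction of local background, for a channel A and a channel B, with the background itself, spot area in pixels and a saturation factor. That factor is a deposited fraction, read from its values as the share of unsaturated pixels. Which dye was read in which channel, and with what software, is not given in the sources used here. For comparison, the authors' deposited value table holds a score per probe and array, a log ratio of unstated base. Its columns had medians from -0.018 to 0.0015 and correlated at 0.671 to 0.904 with print-tip ratios turned to collagen over control. Its slopes against them were 0.355 to 0.596. With channel A as Cy3 it therefore ran as collagen over control on every array, and its base stays unknown.

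Scan rows sorted by block and spot position gave the probe order. Log2 ratios of channel B over A were smoothed by loess (span 0.3) in each of 3 scans, averaged without saturated scans where an unsaturated one existed, and turned to collagen over control. Both arrays of a replicate were averaged. Probes needed a ratio on all 6 arrays and signal over 1.5 times background in at least 1 channel on 4 arrays, which left 2316. Each mean of 3 replicates was tested against 0 with limma 3.58.1 in R 4.3.3 (two-sided, Benjamini-Hochberg, threshold 0.05). The fit was also run on simulated independent values with planted shifts larger than any channel probe mean here. That run does not show how the fit handles shifts of the size seen or the negative correlation of swapped arrays. The number of arrays limits the precision. Dye-swapped arrays share the RNA of 1 replicate, so averaging them is the paired analysis, and the replicate block is an alternative.

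Of 10080 probes, 9066 had 1 platform symbol and 12 had several. Entrez identifiers matched all 83 channel probes to mouse RefSeq genes (GRCm38.p6), from which names and gene order were taken but no coordinates. Named genes were all tested members, with array values for the 4 highest and 4 lowest means, those of 1 sign on 6 arrays and those where 1 array stood apart. Array values of Kcnd2, Kcnh3 and others were given by replicate. Members and lists were chosen with earlier results of these data known. Alternatives were other background correction, normalization, scans, filters, dye orientations, values, blocks and replicates left out. Figures were drawn with matplotlib 3.10.9.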

Additional observations from a re-analysis of the deposited data

Results flagged for a closer look

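In 5 of the 17 tested channel probes a single array lay far from the rest: its gap to the nearest value, over the whole range of 6 values, was above Dixon's critical value. It was always the Cy3-collagen array of replicate 1, where Clcn4 read 2.78, Cacng2 -1.60, Kcns1 -1.54, Scn3a -1.41 and Cacna1g -0.96. Chance flags about 1 in 20 groups of independent values, and these probes share an array whose ratios were wider over all tested probes. With print-tip loess that array read 2.10 for Clcn4, -0.58 for Cacng2, -0.77 for Kcns1, -0.97 for Scn3a and 0.06 for Cacna1g. Beyond that and leaving out replicate 1, the part of that array in each value was not tested.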

How the results depend on the processing

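With limma, 0 of 17 channel probes passed the adjusted threshold in the main setting, and 0 passed with each alternative except the arrays with collagen in Cy5 only, which called 2 (Kcng4 and Scnn1a). Over all tested probes the calls were 0, but 34 with collagen in Cy5 only and 30 without replicate 3, so leaving out single replicates gave 0 to 30. For channel probes leaving out single replicates gave 0. The replicate block gave 0 calls, 28 unadjusted ones over all probes and a channel median of -0.12, and changed no call. That median lay between -0.18 without the fourth column of printing blocks and 0.02 with collagen in Cy3 only, and between -0.16 and -0.0019 without single replicates. The sign changed for 7 of 17 probes without replicate 1, 6 with collagen in Cy5 only, 4 with collagen in Cy3 only, 4 with print-tip loess and 6 of 14 in the authors' deposited table, whose log base is unknown. At an unadjusted p under 0.05 the 25 tested probes became 47 with normexp, 53 with median centring and without replicate 1, 69 without replicate 2, 165 without replicate 3, 365 with collagen in Cy5 only, 58 with collagen in Cy3 only, 74 with a ratio on 1 array of every replicate and 15 of 1539 in the authors' table. Channel B had signal on all 6 arrays for 17 of 83 channel probes (20.5%, against 23.2% of all probes). This bounds how many were tested. The cause of these shifts was not tested.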
